A study of Mus musculus with 12 samples.

Results

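Brown and white fat genes were followed array by array in the ascending aorta of mice. The 8 genes named were Ucp1, Cidea, Adipoq, Plin1, Fabp4, Cfd, Pparg and Lpl. They were matched by symbol to the probe sets annotated with that symbol alone, and 7 of the 8 were found among 19938 genes so represented. No probe set carried Cfd alone in the annotation used, and Cfd was not analysed here. Each of the 7 genes was read by 1 probe set.

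The study put 12 whole-transcript microarrays in 4 groups of 3, all from mice aged 6 weeks. The mutant groups were heterozygous for the C1039G allele of fibrillin-1 (Fbn1), a mouse model of Marfan syndrome, and the other groups had wild-type Fbn1. All 4 groups had floxed alleles of the TGF-beta type II receptor (Tgfbr2) and Myh11-CreERT2, a Cre made under a smooth muscle myosin promoter that acts once tamoxifen is given. Tamoxifen, 1 mg a day for 5 days, was given to the mutant knockout and wild-type knockout groups at 4 weeks of age, and corn oil to the mutant control and wild-type control groups. Loss of the receptor and exposure to tamoxifen cannot be told apart in this design. The Cre acts in smooth muscle, so no group is labelled as carrying a deletion in fat cells. The tissue was the ascending aorta between the coronary arteries and the first arch branch, and the labels say nothing of the fat around it. They do not say either whether each array was 1 animal, so the spread behind a p-value may be technical.

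Fat lies around large arteries. Brown fat cells burn lipid for heat through UCP1, a channel that lets protons leak across the inner mitochondrial membrane, and white fat cells store lipid. PPAR-gamma, the product of Pparg, is the nuclear receptor that drives fat cell formation, and Adipoq, Plin1, Fabp4, Cidea and Lpl are known among its targets in fat. Perivascular fat of the thoracic aorta of mice is known to resemble brown fat. Several of these genes are also made outside fat, for example Fabp4 in endothelium and macrophages, Pparg in macrophages, and Lpl in muscle and macrophages. These examples do not list every cell that makes them.

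Levels are log2 of the deposited intensity, which the submitters' processing notes credit to RMA. Median intensity per array lay between 300.9 and 334.0. A level says how bright 1 probe set was and is compared between arrays, never with another gene's. In pieces of whole tissue, more fat cells and more RNA per fat cell cannot be told apart. The mean of the smooth muscle markers, with 12 of 12 above the filter on dim genes, was nearly even across the arrays. Its deviation from the average array was -0.01 to 0.03 in mutant knockouts, -0.06 to -0.02 in mutant controls, 0.00 to 0.03 in wild-type knockouts and 0.01 to 0.03 in wild-type controls. Single markers differed between knockouts and controls: 2 were called higher and 1 lower in the mutant, and 1 higher and 2 lower in the wild-type. Among all genes 13.4% and 18.8% were called either way. Tgfbr2 itself, read by 1 probe set, was 11.98 to 12.07 in mutant knockouts, 11.95 to 12.04 in mutant controls, 11.79 to 11.95 in wild-type knockouts and 11.94 to 11.96 in wild-type controls, with no call between knockouts and controls. Where its probes lie relative to the floxed part is not given in the sources used here, so this level does not check the labels, and knockout and control below are the groups labelled so. The fat markers were not even. Mutant control 3 and mutant knockout 1 stood apart from the other 10 arrays by their Ucp1 level. Results that rest on them are given with and without them where both were computed.

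Ucp1 was near the floor of the array in most samples. Its log2 level was 8.21, 7.30 and 6.88 in mutant knockouts, 6.76, 6.75 and 8.58 in mutant controls, 6.75, 6.93 and 6.87 in wild-type knockouts, and 6.76, 6.80 and 6.88 in wild-type controls. The highest array, mutant control 3, was 3.54-fold above the lowest. The mutant groups therefore each held 1 array of high Ucp1, with a middling value in mutant knockout 2, while all 6 wild-type arrays lay within a narrow band. The order of the group means was mutant knockout, mutant control, wild-type knockout and wild-type control, and no neighbours in that order differed beyond their spread. The mean of Ucp1 over the arrays, 7.12, was under the filter of 7.31, so its differences come from a limma fit of all 19938 genes without the filter. Knockout minus control was 0.10 ± 0.40 (SE, n = 3 arrays each) in the mutant, with a 95% interval of -0.77 to 0.97 and limma's adjusted p of 0.889. In the wild-type it was 0.04 ± 0.40, with an interval of -0.83 to 0.91 and limma's adjusted p of 0.971. Fbn1 mutant minus wild-type was 0.61 ± 0.40 among knockouts and 0.55 ± 0.40 among controls, with adjusted p of 0.504 and 0.468 from limma. Without the 2 arrays of high Ucp1, knockout minus control was 0.33 in the mutant, from 7.30 and 6.88 against 6.76 and 6.75. Fbn1 mutant minus wild-type was then 0.24 among knockouts and -0.06 among controls. The 2 arrays were picked by the Ucp1 level itself, which narrows its spread, so that this fit is no test of Ucp1. Over all alternatives the adjusted p of the mutant knockout effect ran between 0.104 and 0.95.

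**Figure D1:**
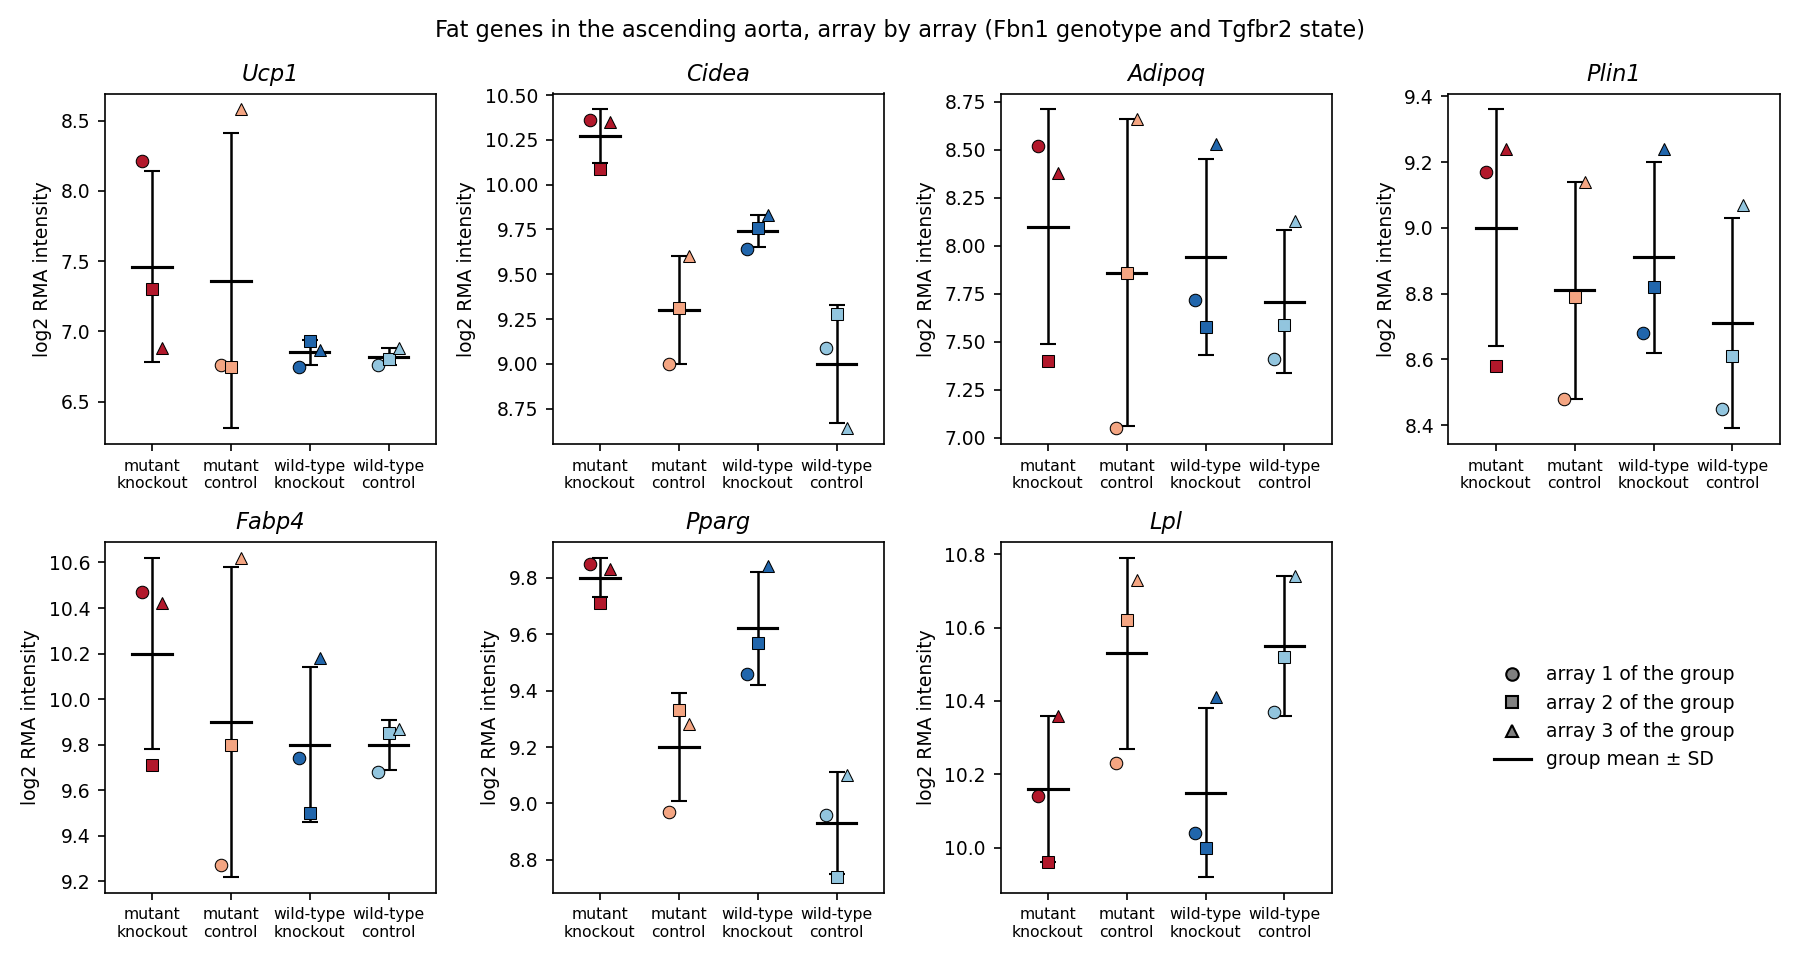
Log2 RMA intensity (vertical axis) of the 7 fat genes on each of the 12 arrays, in 4 groups of 3, with the group mean and SD as a bar and whiskers. Each panel has its own scale. Ucp1 is high on mutant knockout 1 (8.21) and mutant control 3 (8.58), Adipoq, Plin1 and Fabp4 scatter widely inside groups, and Cidea and Pparg are higher in knockouts of both genotypes.

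The bases before the RefSeq start of Ucp1 are shown because the level of this gene differed more between arrays of 1 group than between groups. The window holds the 250 bases that end at the start (GRCm38.p6, chr8:83290098-83290347, plus strand), read 5′ to 3′. Capitals mark AGGTCA, a hexamer bound by nuclear receptors such as the PPARs, searched on both strands, which begins here 14 bases before the start.
Ucp1: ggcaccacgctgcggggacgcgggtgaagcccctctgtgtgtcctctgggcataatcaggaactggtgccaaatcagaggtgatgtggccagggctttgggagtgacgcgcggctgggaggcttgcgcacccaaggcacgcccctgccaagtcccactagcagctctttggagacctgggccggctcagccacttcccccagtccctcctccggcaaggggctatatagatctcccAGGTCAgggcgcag
The hexamer is present in 14.0% of 32851 promoter windows of this length, and a match is a description of the letters only.

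Some genes of the brown fat list were high on the same arrays as Ucp1 and others were not. Cox8b, a cytochrome c oxidase subunit of brown fat and muscle, had log2 levels of 9.17, 8.20 and 8.78 in mutant knockouts, 7.76, 8.36 and 9.58 in mutant controls, 8.14, 8.08 and 8.91 in wild-type knockouts, and 7.89, 8.12 and 8.15 in wild-type controls. Cox7a1, another such subunit, reached 8.82 on mutant knockout 1 and 9.02 on mutant control 3, and lay between 8.11 and 8.57 on the other 10 arrays. Otop1, a proton channel gene found in brown fat, reached 8.51 on mutant knockout 1 and 8.67 on mutant control 3, against 8.10 to 8.46 elsewhere. Dio2, the thyroid hormone deiodinase of brown fat, was instead lowest of all 12 arrays on mutant control 3, at 9.72. The mean log2 deviation of the 26 genes of the list was 0.16 on mutant knockout 1 and 0.05 on mutant control 3. Mutant knockouts 2 and 3, at 0.08 and 0.15, lay above mutant control 3. Wild-type knockout 3 was different: its Cox8b, 8.91, was the third highest of the 12 arrays, but its Ucp1, 6.87, was at the level of the arrays with little fat signal.

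The 10 genes whose deviations from their group mean were most like those of Ucp1 over the 12 arrays, among 13945 candidates, were Kctd12, Ppp1r13b, Fasn, Ptger4, Dgat2, Hoxb9, Elovl6, Fcgr3, Pgr and Chchd10, with Pearson r of 0.89 to 0.93. Fasn and Dgat2 stood on the adipocyte list and Fcgr3 on that of macrophage markers. Fasn and Elovl6 make and lengthen fatty acids, and Dgat2 makes triglyceride. Dgat2 had 10.17, 9.82 and 9.74 in mutant knockouts, 9.27, 9.46 and 10.57 in mutant controls, 9.09, 9.14 and 9.53 in wild-type knockouts, and 8.89, 9.19 and 9.25 in wild-type controls. Its 2 highest arrays were those of Ucp1. Mutant arrays lay above wild-type arrays among knockouts, an order found in 14.4% of the genes tested. Among controls the lowest mutant array, 9.27, lay just above the highest wild-type array, 9.25. Dgat2 was called between mutant and wild-type Fbn1 neither among knockouts nor among controls. The SD of Ucp1 was 0.68 in mutant knockouts and 1.05 in mutant controls, against 0.09 in wild-type knockouts and 0.06 in wild-type controls. These likenesses therefore weigh most the mutant groups, which hold the 2 arrays of high Ucp1. They were not computed without those 2 arrays, and the arrays share 1 normalization.

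Adipoq, Plin1 and Fabp4 varied from array to array inside every group and together. Adipoq encodes adiponectin, a hormone made almost only by fat cells. Its log2 level was 8.52, 7.40 and 8.38 in mutant knockouts, 7.05, 7.86 and 8.66 in mutant controls, 7.72, 7.58 and 8.53 in wild-type knockouts, and 7.41, 7.59 and 8.13 in wild-type controls. Array 3 was the highest of its group in 3 of the 4 groups and array 1 in the mutant knockouts, and all 4 groups overlapped. The lowest and the highest arrays, 3.04-fold apart, were both mutant controls.

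Plin1 encodes perilipin 1, which coats the lipid droplet of fat cells. Its level was 9.17, 8.58 and 9.24 in mutant knockouts, 8.48, 8.79 and 9.14 in mutant controls, 8.68, 8.82 and 9.24 in wild-type knockouts, and 8.45, 8.61 and 9.07 in wild-type controls. As with Adipoq, mutant knockout 2 was low in its group and array 3 was high in each of the other groups. Fabp4, a fatty acid carrier of fat cells and capillary endothelium, had 10.47, 9.71 and 10.42 in mutant knockouts, 9.27, 9.80 and 10.62 in mutant controls, 9.74, 9.50 and 10.18 in wild-type knockouts, and 9.68, 9.85 and 9.87 in wild-type controls. Its lowest and highest arrays were again mutant control 1 and mutant control 3, 2.55-fold apart, and no group was separate from the others.

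Without a covariate, none of the 3 genes passed limma's test in any comparison, and their intervals were wide. For Adipoq, knockout minus control was 0.24 ± 0.39 in both genotypes (SE, n = 3 arrays each), with a 95% interval of -0.60 to 1.09 in the mutant and -0.61 to 1.08 in the wild-type. Limma's adjusted p was 0.692 and 0.731. For Plin1 the difference was 0.19 ± 0.22 in the mutant and 0.20 ± 0.22 in the wild-type, with adjusted p of 0.566 and 0.571 from limma. For Fabp4 it was 0.30 ± 0.29 in the mutant and 0.00 ± 0.29 in the wild-type, with adjusted p of 0.492 and 0.998. Intervals of this width leave room for a change of more than 1.5-fold in either direction for Adipoq, so that the arrays do not show equal levels. The Fbn1 mutation gave differences of 0.16, 0.08 and 0.40 among knockouts and of 0.15, 0.09 and 0.09 among controls for Adipoq, Plin1 and Fabp4, none past the threshold. The order of their group means put mutant knockouts highest for all 3 genes, with no neighbours beyond their spread.

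Spread inside groups was large for these genes. The SD within groups was 0.627 for Ucp1, 0.595 for Adipoq, 0.439 for Fabp4 and 0.327 for Plin1. Those of Adipoq, Fabp4 and Plin1 stood at percentiles 99.9, 99.7 and 99.1 of the genes tested, and that of Ucp1 at percentile 99.9 of all genes. The median gene tested had an SD of 0.0814. Cidea, Lpl and Pparg had 0.238, 0.221 and 0.170, at percentiles 97.6, 97.1 and 93.5.

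Deviations from the group means were then set against each other in all 21 pairs of the 7 genes over 12 arrays. Pearson r within groups was 0.96 for Adipoq with Fabp4, with an exact permutation p of 0.000772, the smallest that 1296 permutations within groups can give, and an adjusted p of 0.0162. It was 0.95 for Adipoq with Plin1 (exact permutation, adjusted p = 0.0162) and 0.84 for Plin1 with Fabp4 (exact permutation, adjusted p = 0.0259). Pooled over groups, r was 0.93, 0.95 and 0.82, with Spearman's rho of 0.93, 0.87 and 0.80 and permutation p of 3e-05, 3e-05 and 0.00119, adjusted to 0.000315, 0.000315 and 0.00625. Without the 2 arrays of most extreme Adipoq, or Plin1 for the last pair, r was 0.92, 0.94 and 0.79. In the 6 knockout arrays alone r was 0.92, 0.96 and 0.86, and in the 6 control arrays 0.94, 0.94 and 0.79.

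Ucp1 did not share this pattern over all arrays. Its pooled r with Adipoq was 0.58 (rho 0.40, permutation p = 0.0433, adjusted p = 0.13 over 21 pairs) and was -0.05 without the 2 arrays of most extreme Ucp1. With Fabp4 the pooled r was 0.70 (rho 0.51, permutation p = 0.00909, adjusted p = 0.0382) and 0.06 without those 2 arrays. Both relations rest on mutant control 3 and mutant knockout 1. Mutant knockout 3 and wild-type knockout 3 had Adipoq of 8.38 and 8.53, against 8.52 and 8.66 on the 2 arrays of high Ucp1, but Ucp1 of 6.88 and 6.87.

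**Figure D2:**
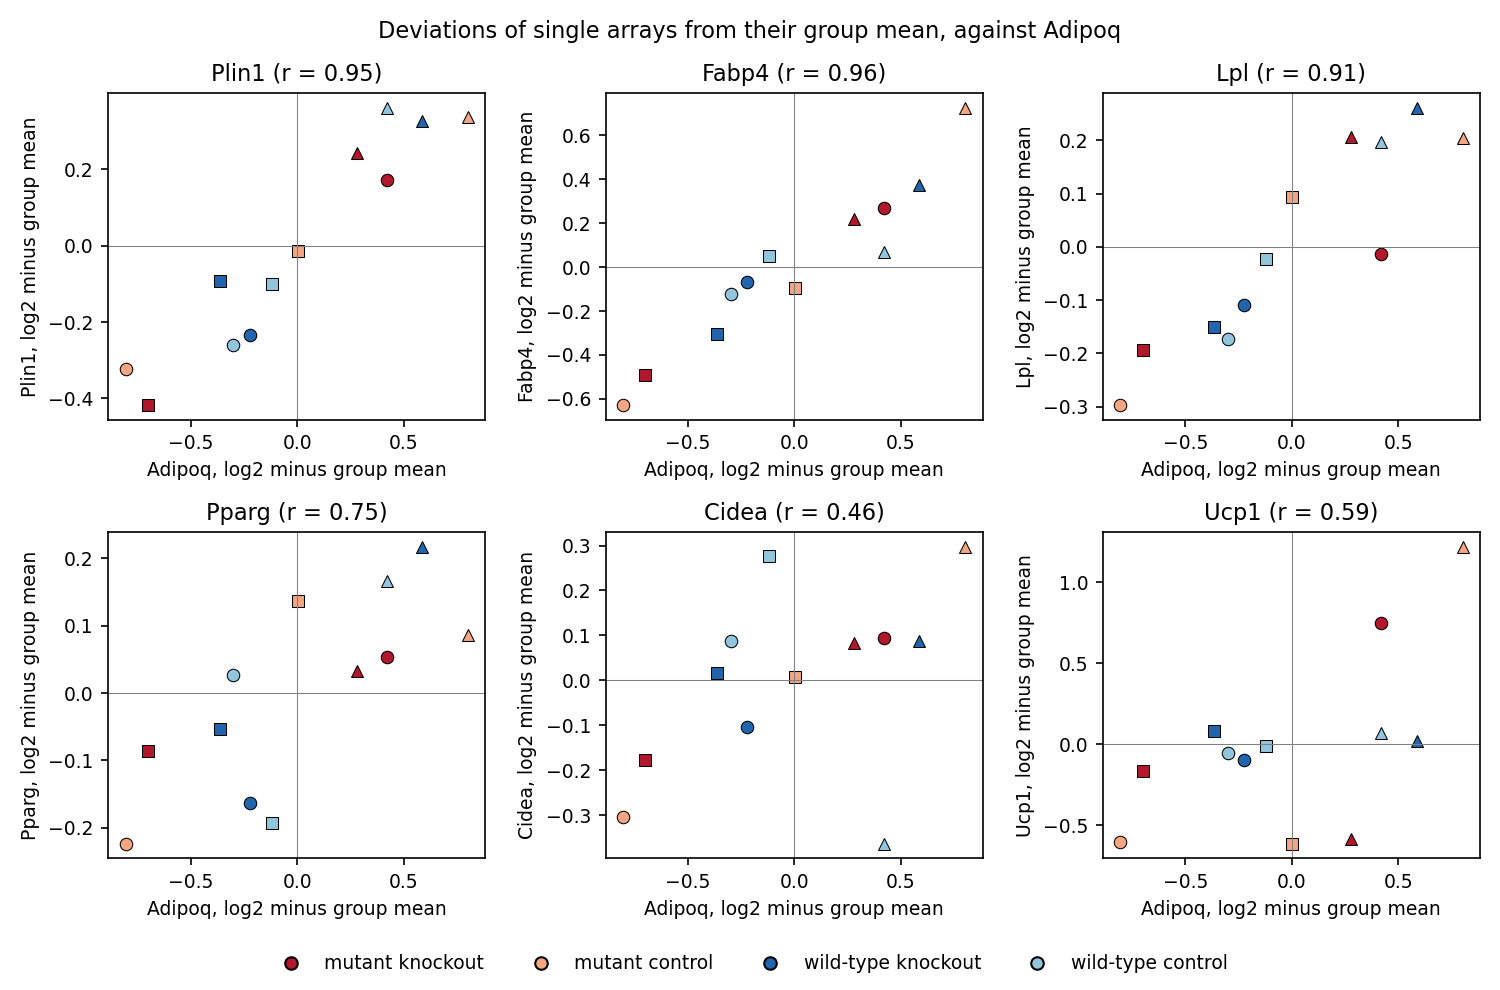
Deviation of each array from its group mean on the log2 scale, Adipoq on the horizontal axis and the gene named above each panel on the vertical axis, with 12 arrays coloured by group and marker shapes for arrays 1 (circle), 2 (square) and 3 (triangle). Plin1 (r = 0.95), Fabp4 (r = 0.96) and Lpl (r = 0.91) follow Adipoq, Pparg does so less closely (r = 0.75), and Ucp1 is lifted on 2 arrays only.

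The promoters of Adipoq and Plin1 are shown because these genes moved together on single arrays. Each window holds the 250 bases before the RefSeq start, read 5′ to 3′ on the strand of the gene, in GRCm38.p6: chr16:23146286-23146535 on the plus strand for Adipoq and chr7:79732777-79733026 on the minus strand for Plin1. Capitals mark AGGTCA or TTGCNNAA, a core bound by C/EBP factors of fat cells, on either strand.
Adipoq: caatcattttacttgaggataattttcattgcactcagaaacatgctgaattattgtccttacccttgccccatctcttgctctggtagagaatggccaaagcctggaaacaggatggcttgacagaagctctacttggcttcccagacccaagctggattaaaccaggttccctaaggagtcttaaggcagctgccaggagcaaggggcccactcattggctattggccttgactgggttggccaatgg
Plin1: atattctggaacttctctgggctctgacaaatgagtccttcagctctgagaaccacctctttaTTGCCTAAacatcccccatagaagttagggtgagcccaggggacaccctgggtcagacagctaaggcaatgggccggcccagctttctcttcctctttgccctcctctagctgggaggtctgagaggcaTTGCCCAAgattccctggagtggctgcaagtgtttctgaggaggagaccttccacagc
TTGCNNAA began 187 and 58 bases before the start of Plin1 and is found in 9.56% of all windows. Neither set of letters is in the window of Adipoq, and no 2 matches overlapped. The direct repeat AGGTCANAGGTCA, bound by PPAR with its partner RXR, is in 0.0335% of windows and in none of those shown here.

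The genes most like Adipoq inside groups were named by the same rule, and 5 of the 10 stood on the fat lists. The 10 of highest r among 13945 candidates were Aqp7, Cd36, Gimap6, Tmem45b, Prkar2b, Thrsp, Lgals12, Cox8b, S100a4 and Trarg1, with r of 0.94 to 0.96 over 12 arrays. Aqp7 lets glycerol out of fat cells, Cd36 takes up fatty acids, Thrsp is a lipogenic gene and Lgals12 a galectin of fat. Aqp7 had 8.50, 7.62 and 8.10 in mutant knockouts, 7.10, 7.84 and 8.54 in mutant controls, 7.61, 7.59 and 8.02 in wild-type knockouts, and 7.23, 7.38 and 7.85 in wild-type controls. The arrays ranked much as for Adipoq, with mutant control 1 lowest and mutant control 3 highest. Car3, a carbonic anhydrase abundant in fat and muscle, had the largest SD within groups of the adipocyte list, 1.08, and ran between 8.85 on mutant control 1 and 12.06 on mutant knockout 3, wild-type knockout 3 and wild-type control 3. Gpd1, which makes the glycerol backbone of triglyceride, and Thrsp had SDs of 0.473 and 0.456.

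Cidea and Pparg differed from Adipoq, Plin1 and Fabp4 in that they were called higher in knockouts of both genotypes. Cidea encodes a lipid droplet protein abundant in brown fat. Its level was 10.36, 10.09 and 10.35 in mutant knockouts, 9.0, 9.31 and 9.60 in mutant controls, 9.64, 9.76 and 9.83 in wild-type knockouts, and 9.09, 9.28 and 8.64 in wild-type controls. Every knockout array lay above every control array of the same genotype, an order found in 21.7% of the genes tested in the mutant and 16.2% in the wild-type. The mutant knockouts also lay above all other arrays, and 14.4% of genes had mutant knockouts clear above wild-type knockouts. Knockout minus control was 0.96 ± 0.16 in the mutant (1.95-fold, SE, n = 3 arrays each), with limma's adjusted p of 0.00282. In the wild-type it was 0.74 ± 0.16 (1.67-fold), with limma's adjusted p of 0.00682. The order of the group means was mutant knockout, wild-type knockout, mutant control and wild-type control. The 2 control groups overlapped and differed by 0.30 ± 0.16 (adjusted p = 0.276), and the 2 knockout groups did not overlap but differed by 0.53 ± 0.16 with limma's adjusted p of 0.076.

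Pparg had 9.85, 9.71 and 9.83 in mutant knockouts, 8.97, 9.33 and 9.28 in mutant controls, 9.46, 9.57 and 9.84 in wild-type knockouts, and 8.96, 8.74 and 9.10 in wild-type controls. Knockouts lay above controls without overlap in each genotype, while mutant and wild-type overlapped among knockouts and among controls. Knockout minus control was 0.60 ± 0.12 in the mutant (1.51-fold, SE, n = 3 arrays each, limma's adjusted p = 0.00705) and 0.69 ± 0.12 in the wild-type (1.61-fold, adjusted p = 0.00152). The group means ran in the same order as for Cidea. Fbn1 mutant minus wild-type was 0.17 ± 0.12 among knockouts and 0.26 ± 0.12 among controls, with adjusted p of 0.454 and 0.197 from limma.

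RefSeq gives Pparg 3 starts, and the 1 probe set does not say which was used. The 250 bases before each are shown because Pparg is the regulator among these genes and rose in knockouts. They lie on the plus strand of GRCm38.p6 at chr6:115360894-115361143, chr6:115362099-115362348 and chr6:115421816-115422065, in the order printed, with the same capitals as above.
Pparg start 1: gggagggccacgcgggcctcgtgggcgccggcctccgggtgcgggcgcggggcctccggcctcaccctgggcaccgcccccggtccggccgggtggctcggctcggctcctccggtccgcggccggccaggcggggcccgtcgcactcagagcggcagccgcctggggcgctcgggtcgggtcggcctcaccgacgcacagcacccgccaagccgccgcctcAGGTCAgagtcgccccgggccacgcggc
Pparg start 2: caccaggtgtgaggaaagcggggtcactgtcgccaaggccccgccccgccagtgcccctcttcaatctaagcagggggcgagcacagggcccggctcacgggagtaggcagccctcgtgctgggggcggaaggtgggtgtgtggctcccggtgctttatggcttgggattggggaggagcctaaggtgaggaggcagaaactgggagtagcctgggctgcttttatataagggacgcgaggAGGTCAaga
Pparg start 3: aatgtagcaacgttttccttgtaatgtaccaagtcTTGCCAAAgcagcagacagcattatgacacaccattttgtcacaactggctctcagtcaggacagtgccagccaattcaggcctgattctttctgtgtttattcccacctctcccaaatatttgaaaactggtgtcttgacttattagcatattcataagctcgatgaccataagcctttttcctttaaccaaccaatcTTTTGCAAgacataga
AGGTCA began 28 and 9 bases before the first and the second start. The C/EBP core began 215 and 16 bases before the third. G and C made up 82.4%, 63.6% and 40.8% of the 3 windows.

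Lpl, the lipase that frees fatty acids from blood lipoproteins at the vessel wall, went the other way. Its level was 10.14, 9.96 and 10.36 in mutant knockouts, 10.23, 10.62 and 10.73 in mutant controls, 10.04, 10 and 10.41 in wild-type knockouts, and 10.37, 10.52 and 10.74 in wild-type controls. In each genotype 2 knockout arrays lay below all controls and the third fell just above the lowest control. Knockout minus control was -0.37 ± 0.15 in the mutant and -0.39 ± 0.15 in the wild-type (SE, n = 3 arrays each), and limma's adjusted p of 0.112 and 0.0855 missed the threshold. As the mean of both genotypes it was -0.38 ± 0.11 (0.767-fold), with limma's adjusted p of 0.0174. Without the 2 arrays of high Ucp1 the mean was -0.33 and limma's adjusted p was 0.0656 and it was no longer called. With each of the 12 arrays left out in turn the mean was -0.46 to -0.33 and was called each time, with adjusted p of at most 0.0449. In the wild-type, leaving out wild-type knockout 3 gave -0.53 and limma's adjusted p of 0.0421. The 2 control groups differed by -0.02 and the 2 knockout groups by 0.00 between mutant and wild-type.

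Of the 6 genes above the filter, 2 rose and none fell in the mutant, where 7.66% of 14944 genes were called higher and 13.4% were called in either direction. In the wild-type 2 rose and none fell, beside 9.17% of all genes called higher and 18.8% called either way. For the mean of both genotypes 2 rose and 1 fell, beside 15.0% and 13.9% of all genes. Groups without overlap in both genotypes, knockouts above, were found in 7.43% of all genes. The median difference of the 6 genes was 0.27 in the mutant and 0.22 in the wild-type, against 0.03 and -0.01 over all genes tested. Between mutant and wild-type Fbn1 none of the 6 was called, beside 5.96% of all genes among knockouts and 6.49% among controls. At an unadjusted p of 0.05 limma's fit held 1 among knockouts, Cidea, and 1 among controls, Pparg. Nor did any pass the test of the difference between the knockout effects of the 2 genotypes (1.48% of all genes), which was 0.23 ± 0.23 for Cidea and -0.09 ± 0.17 for Pparg with adjusted p of 0.64 and 0.822 from limma. Their 95% intervals, -0.27 to 0.72 and -0.45 to 0.27, show how unequal the effects could still be. At an unadjusted p of 0.05 the count stayed at 0.

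Lpl followed the fat signal inside groups even so. Its r within groups was 0.91 with Adipoq, 0.92 with Plin1 and 0.83 with Fabp4, with adjusted p of 0.0162, 0.0162 and 0.027 from the exact permutation test. Pooled over the 4 groups the same r was 0.42, 0.34 and 0.38, with rho of 0.50, 0.23 and 0.48 and permutation p of 0.168, 0.279 and 0.226. At like Adipoq levels the knockouts had lower Lpl than the controls, as the covariate fit given next measures. Cidea and Pparg showed the reverse: their pooled r was 0.85 (rho 0.90, permutation p = 0.00063, adjusted p = 0.00441), and 0.88 without the 2 arrays of most extreme Cidea. Within groups it was 0.13, with an exact permutation p of 0.745. Inside groups, r of Pparg was 0.75 with Adipoq, 0.76 with Plin1 and 0.60 with Fabp4. The exact permutation test gave adjusted p of 0.0547, 0.0547 and 0.166, all short of the threshold. For Cidea the same r was 0.46, 0.28 and 0.65, with adjusted p of 0.38, 0.532 and 0.0891 from that test. Of the 21 pairs, 5 passed the adjusted threshold pooled and 6 within groups.

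Since the amount of fat signal differed between arrays of a group, the knockout effect was also fitted with the log2 level of Adipoq as a covariate, a choice made after these values were seen. Cidea was then 0.92 ± 0.15 in the mutant and 0.70 ± 0.15 in the wild-type (SE), with adjusted p of 0.00353 and 0.00834 from limma. Pparg was 0.55 ± 0.09 and 0.64 ± 0.09, with limma's adjusted p of 0.00303 and 0.000521. Both kept their calls at this setting. Over all alternatives the adjusted p of Cidea ran between 0.000817 and 0.426 in the mutant and between 0.00396 and 0.0567 in the wild-type, and that of Pparg between 0.00303 and 0.644 and between 0.000521 and 0.0142. Lpl was -0.45 ± 0.08 in the mutant and -0.47 ± 0.07 in the wild-type, and limma's adjusted p of 0.00363 and 0.00128 now passed the threshold in each genotype, within ranges over all alternatives of 0.00363 to 0.372 and 0.00128 to 0.246. Plin1 was 0.06 ± 0.08 and 0.08 ± 0.08, and Fabp4 was 0.13 ± 0.10 and -0.17 ± 0.10, none of them called. The covariate takes out what runs linearly with 1 fat gene and does not measure the amount of fat.

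**Figure D3:**
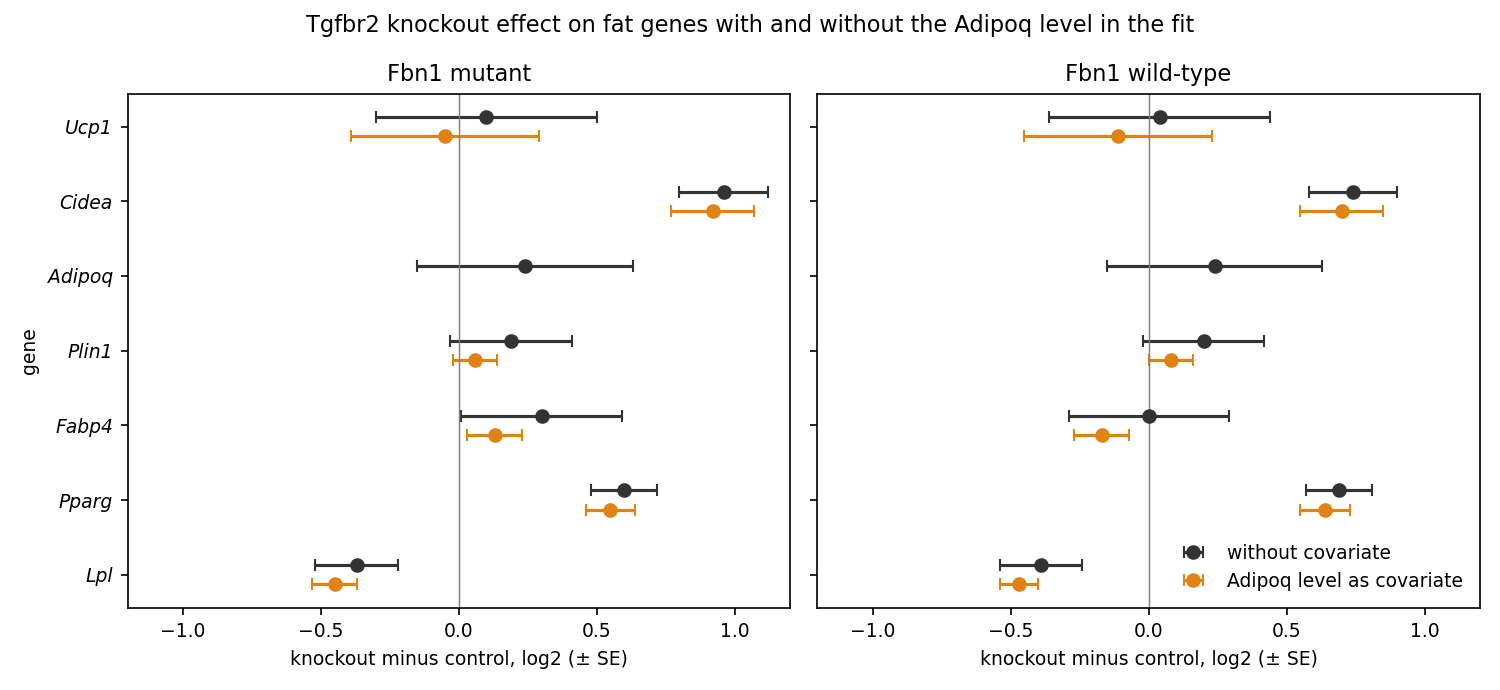
Tgfbr2 knockout minus control on the log2 scale (horizontal axis, points with SE) for the 7 fat genes, in Fbn1 mutant (left) and Fbn1 wild-type aorta (right), without a covariate (dark) and with the Adipoq level as a covariate (orange). Cidea (0.96 and 0.74) and Pparg (0.60 and 0.69) lie above 0 and Lpl (-0.37 and -0.39) below, and the error of Lpl narrows once Adipoq is in the fit.

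With the mean of 38 other adipocyte genes as the covariate, Cidea, Pparg and Lpl were called in both genotypes, at 0.78, 0.43 and -0.64 in the mutant and 0.63, 0.59 and -0.56 in the wild-type. The same fit also called Adipoq lower in the mutant (-0.60, limma's adjusted p = 0.0072, in a range of 0.0072 to 0.965) and Fabp4 lower in the wild-type (-0.37, limma's adjusted p = 0.0242, in a range of 0.0242 to 0.998). With the mean of 26 brown fat and thermogenic genes as the covariate, Cidea was no longer called (0.62 in the mutant, adjusted p = 0.426, and 0.58 in the wild-type, adjusted p = 0.0567, both from limma). Pparg was called in the wild-type only (0.55, adjusted p = 0.0142, against 0.29 and 0.644 in the mutant). So was Lpl (-0.58, limma's adjusted p = 0.0305, against -0.78 and 0.202 in the mutant). The mean of the 26 genes itself differed between the groups, at 0.08 to 0.16 in mutant knockouts and -0.12 to 0.05 in mutant controls. It was -0.04 to 0.04 in wild-type knockouts and -0.12 to -0.05 in wild-type controls.

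The wider list of brown fat and thermogenic genes had 30 entries, of which 26 were on the array and 19 above the filter. In the mutant 4 rose and none fell, beside 7.66% of all genes called higher and 13.4% called either way, with a median of 0.10 against 0.03 over all genes. In the wild-type 3 rose and 2 fell, beside 9.17% and 18.8% of all genes, with a median of 0.07 against -0.01. Kcnk3, a potassium channel of brown fat and also of vascular smooth muscle, had 11.60, 11.64 and 11.13 in mutant knockouts, 10.15, 10.34 and 10.18 in mutant controls, 10.32, 10.30 and 10.29 in wild-type knockouts, and 9.72, 9.87 and 9.84 in wild-type controls. Its mutant knockouts lay far above all other arrays, and knockouts were above controls in each genotype. The rise was 1.24 ± 0.11 in the mutant and 0.49 ± 0.11 in the wild-type, with adjusted p of 3.44e-05 and 0.00753 from limma, and the effects differed by 0.74 ± 0.15 (adjusted p = 0.0346 from limma). The last call was lost when any of 9 of the 12 arrays was left out, with differences of 0.65 to 0.91 and adjusted p of 0.00113 to 0.0835, and was also lost without the 2 arrays of high Ucp1 (0.65, adjusted p = 0.118).

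Dio2, which makes active thyroid hormone inside brown fat cells, rose by 0.74 ± 0.16 in the mutant and 0.86 ± 0.16 in the wild-type, with adjusted p of 0.0123 and 0.00305 from limma. Ppargc1a, the coactivator of mitochondrial genes, rose by 0.82 ± 0.10 in the mutant, with limma's adjusted p of 0.000403, and had 10.27, 10.11 and 10.14 in mutant knockouts against 9.24, 9.33 and 9.47 in mutant controls. The 3 knockouts lay clear of the controls. In the wild-type Ppargc1a averaged 9.47 in knockouts and 9.23 in controls and was not called. Plin5, a lipid droplet protein of oxidative tissues, rose by 0.25 in the mutant. Prdm16, the transcription factor that sets brown fat identity, fell by 0.50 ± 0.09 in the wild-type (limma's adjusted p = 0.00212), and its difference in the mutant was -0.17 ± 0.09 (adjusted p = 0.203). Pank1, a kinase of coenzyme A synthesis, fell by 0.35 and S100b rose by 0.49 in the wild-type. The calls of Plin5 and Pank1 were lost when any of 9 and 7 arrays was left out, with adjusted p of up to 0.171 and 0.163. Dio2 in the mutant was no longer called without the 2 arrays of high Ucp1 (0.62, adjusted p = 0.0814).

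Among the same list, Fbn1 mutant against wild-type gave 5 higher and 2 lower genes in knockouts, where 2.8% and 3.16% of all genes were called, and 3 higher and none lower in controls, where 3.17% and 3.33% were. Kcnk3 was higher by 1.15 ± 0.11 among knockouts and 0.41 ± 0.11 among controls. Fabp3, a fatty acid carrier of muscle and brown fat, was higher by 0.48 ± 0.07 and 0.50 ± 0.07, and Slc25a20, the mitochondrial acylcarnitine carrier, by 0.18 and 0.22. Ppargc1a was higher by 0.70 ± 0.10, Dio2 was lower by a log2 difference of -0.65 ± 0.16 and S100b by -0.40 ± 0.08 among knockouts. The calls of Kcnk3 among controls (0.35 to 0.45), Slc25a20 in either comparison (0.15 to 0.23) and Dio2 (-0.71 to -0.59) were each lost when any of 3 or more arrays was left out. That of S100b was lost without mutant knockout 1 (-0.35, adjusted p = 0.0599).

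The list of adipocyte and white fat genes had 40 entries, 38 on the array and 34 above the filter. In the mutant 4 rose and none fell (median 0.21, against 0.03 over all genes), and in the wild-type 5 rose and 1 fell (median 0.17, against -0.01). The shares called either way among all genes were 13.4% and 18.8%, and these counts lie near them. For the mean of both genotypes 12 rose and none fell, beside 15.0% and 13.9% of all genes. Slc2a4, the insulin-regulated glucose transporter of fat and muscle, had 11.14, 11.13 and 11.20 in mutant knockouts, 10.15, 10.34 and 10.45 in mutant controls, 10.46, 10.45 and 10.52 in wild-type knockouts, and 10.51, 10.38 and 10.54 in wild-type controls. The mutant knockouts stood above the other 9 arrays, which overlapped. It rose by 0.84 ± 0.07 in the mutant (limma's adjusted p = 3.12e-05), and the effects of the 2 genotypes differed by 0.84 ± 0.10 (adjusted p = 0.00216). Slc2a4 and Kcnk3 are made in muscle too, and the mean of the cardiac muscle markers was likewise highest in mutant knockouts, at 0.14 to 0.47, with -0.21 to 0.02 in mutant controls, -0.05 to 0.07 in wild-type knockouts and -0.21 to -0.20 in wild-type controls. The part of muscle cells in these differences was not tested.

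Sncg, gamma-synuclein, found in fat cells and sensory neurons, rose by 0.45 ± 0.10 in the mutant and 0.77 ± 0.10 in the wild-type, with adjusted p of 0.0152 and 0.000293 from limma. Its call in the mutant was lost without the 2 arrays of high Ucp1 (0.45, adjusted p = 0.0686). It was also higher in the Fbn1 mutant by 0.63 ± 0.10 among knockouts and 0.95 ± 0.10 among controls. Of the adipocyte list, Fbn1 mutant against wild-type gave 3 higher and 2 lower genes in knockouts, where 2.8% and 3.16% of all genes were called. In controls it gave 1 higher and 1 lower, where 3.17% and 3.33% were. Rbp4, the retinol carrier, rose by 0.42 and Pnpla2, the first lipase of triglyceride breakdown, by 0.26 in the mutant. Among controls Rbp4 was lower in the Fbn1 mutant, by a log2 difference of -0.48, a call kept without each array. Group means of Rbp4 were 12.99 in mutant knockouts, 12.57 in mutant controls, 13.28 in wild-type knockouts and 13.05 in wild-type controls. In the wild-type, Pde3b, a phosphodiesterase that curbs lipolysis, rose by 0.48, Angptl4, a secreted inhibitor of lipoprotein lipase, by 0.44 and Adipor2, a receptor for adiponectin, by 0.29, with adjusted p of 0.0185, 0.00874 and 0.0187 from limma. Angptl4 had 8.34, 8.35 and 8.09 in mutant knockouts, 8.04, 8.09 and 7.67 in mutant controls, 8.01, 8.03 and 8.02 in wild-type knockouts, and 7.61, 7.65 and 7.49 in wild-type controls. In the wild-type every knockout array lay above every control array, an order found in 16.2% of the genes tested. In the mutant the lowest knockout and the highest control were level at 8.09, and Angptl4 was not called there. Cox8b, Aqp7, Gpd1 and Thrsp, with wide scatter inside groups, were called in neither genotype. The calls of Pnpla2, Pde3b and Adipor2 were lost when any of 4, 2 and 3 arrays was left out, with adjusted p of up to 0.0689, 0.0809 and 0.0809.

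**Figure D4:**
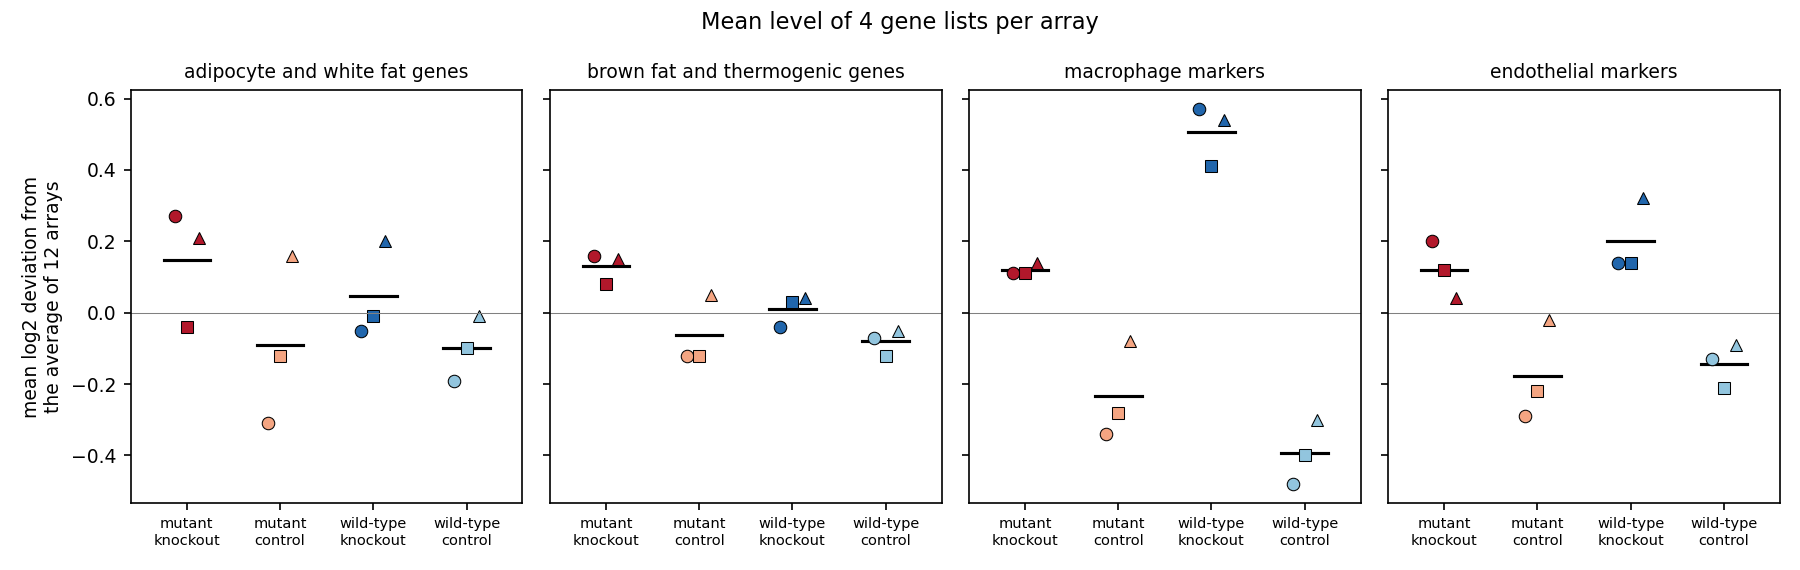
Mean log2 deviation from the average of the 12 arrays (vertical axis) for 4 gene lists, with each array as a point and group means as bars. The adipocyte list runs between -0.31 and 0.27 and overlaps between groups, while macrophage markers separate knockouts (0.11 to 0.57) from controls (-0.48 to -0.08).

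Regulators and partners of PPAR-gamma gave 22 genes above the filter of 25 listed. In the mutant 2 rose and none fell, namely the nuclear receptor gene Nr1h3 (0.24) and the Wnt ligand gene Wnt10b (0.22), a share near the 7.66% of all genes called higher. In the wild-type, Zfp521, a repressor of fat cell formation, rose by 0.38 ± 0.06, and Rxra, the DNA-binding partner of PPAR-gamma, and the coactivator Ncoa2 fell by 0.24 each, with adjusted p of 0.000701, 0.0146 and 0.0221 from limma. The median of the list was 0.06 in the mutant and -0.02 in the wild-type, beside 0.03 and -0.01 over all genes, and its 3 calls in the wild-type stand beside 18.8% of all genes called. The calls of Nr1h3, Wnt10b, Ncoa2 and Rxra were lost when any of 8, 7, 4 and 2 arrays was left out.

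Genes that act on lipoprotein lipase or take up its products gave 10 above the filter of 16 listed. In the mutant 1 rose and 3 fell, and in the wild-type 1 rose and 2 fell, beside 13.4% and 18.8% of all genes called either way. Angptl4, the inhibitor of the lipase described above, stood on the adipocyte list and is not in these counts. Gpihbp1, which carries the lipase across capillary endothelium, rose by 0.25 ± 0.07 in the mutant and 0.31 ± 0.07 in the wild-type, with adjusted p of 0.0297 and 0.00671 from limma. Vldlr, a receptor for triglyceride-rich lipoproteins, fell by 0.21 ± 0.06 and 0.57 ± 0.06, with limma's adjusted p of 0.0378 and 5.87e-05. Sort1, a sorting receptor that binds the lipase, fell by 0.17 ± 0.05 and 0.32 ± 0.05, and Sel1l, needed for the lipase to leave the endoplasmic reticulum, fell by 0.18 ± 0.05 in the mutant. In the mutant, the calls of Gpihbp1, Vldlr, Sort1 and Sel1l were lost when any of 5, 4, 10 and 4 arrays was left out, and those of the wild-type named here were kept each time.

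Markers of other cells also differed between knockouts and controls, beside Cidea, Pparg and Lpl. Among all genes tested, 7.66% were called higher in the mutant and 9.17% in the wild-type, and 13.4% and 18.8% either way. Of 15 macrophage markers above the filter, 7 rose in the mutant and 15 in the wild-type, and none fell. The mean of all 16 was 0.11 to 0.14 in mutant knockouts, -0.34 to -0.08 in mutant controls, 0.41 to 0.57 in wild-type knockouts and -0.48 to -0.30 in wild-type controls. Of 15 endothelial markers, 7 rose and 1 fell in the mutant and 6 rose and 1 fell in the wild-type, with means of 0.04 to 0.20 in mutant knockouts, -0.29 to -0.02 in mutant controls, 0.14 to 0.32 in wild-type knockouts and -0.21 to -0.09 in wild-type controls. Cidea was highest in mutant knockouts, whereas the macrophage markers were highest in wild-type knockouts. Of the 15 macrophage markers, 7 were called lower in mutant than in wild-type knockouts, beside 3.16% of all genes. The rise of Cidea and Pparg and the lower Lpl were not assigned to a cell type. The part of macrophages, of endothelium and of smooth muscle, where the Cre acts, was not tested.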

How the data were processed

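RNA of 12 ascending aortas or pools (the labels do not say which) was hybridised to 1-colour Affymetrix whole-transcript arrays with biotin label, per the labels' protocols. Intensities were deposited for 35556 probe sets on a linear scale, normalised by the authors with RMA in Partek 6.4 per the submitters' processing notes. Log2 was taken here. Of 23410 annotated probe sets, 21789 had 1 symbol and 1621 several. A gene was its probe set of highest mean. Genes with a mean under the 25th percentile of the probe sets of 1 symbol (log2 7.31) were left out, leaving 14944.

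One coefficient per group was fitted with limma 3.58.1 in R 4.3.3 (lmFit, eBayes without trend, 8 residual degrees of freedom), with two-sided tests, Benjamini-Hochberg adjustment over all 14944 genes and a threshold of 0.05. The procedure was tested on simulated data. Correlations used permutation tests (100000 resamples, or all 1296 within groups). A list's mean per array averaged the log2 deviations of its genes on the array, the 7 genes left out. Promoter letters came from RefSeq (GRCm38.p6), where 4 of the genes had a window that is shown. The files mark no probe set as below background, and the 12 arrays set the precision.

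The genes and the 13 lists (brown fat, adipocyte, PPAR-gamma regulators, lipoprotein lipase, and markers of macrophages, endothelium, smooth muscle, fibroblasts, cardiac muscle, skeletal muscle, nerve, lymphocytes and erythroid cells) were chosen with earlier results of these data known. Named were the 7 genes, up to 4 called genes of smallest p per list and comparison, 4 of largest SD within groups in the fat lists, and the 10 genes most like Ucp1 and Adipoq, where predicted genes, receptors of smell and pheromones, and small RNA genes were left out. Elovl6, Ppargc1a, Cox8b and Angptl4 were described after their values were seen. Alternatives changed the filter, scaling, probe set rule, variance model, arrays, replicate block or a fat covariate.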

Additional observations from a re-analysis of the deposited data

Results flagged for a closer look

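For 2 genes of the fat lists the effect of the Tgfbr2 knockout differed between the Fbn1 genotypes by limma's test of the difference itself. Slc2a4 rose by 0.84 ± 0.07 in the mutant, and its knockouts and controls averaged 10.48 ± 0.04 and 10.48 ± 0.09 (SD, n = 3 arrays each) in the wild-type, so that the effects differed by 0.84 ± 0.10 (SE, limma's adjusted p = 0.00216). Kcnk3 rose in both genotypes, by 1.24 ± 0.11 in the mutant and 0.49 ± 0.11 in the wild-type, a difference of 0.74 ± 0.15 (limma's adjusted p = 0.0346, lost when any of 9 of the 12 arrays was left out). Both genes are made in muscle too. The mean of 12 cardiac muscle markers was 0.14 to 0.47 in mutant knockouts, -0.21 to 0.02 in mutant controls, -0.05 to 0.07 in wild-type knockouts and -0.21 to -0.20 in wild-type controls, and 4 of 8 skeletal muscle markers rose in the mutant and 1 in the wild-type. Their part in these differences was not tested. Of the 7 fat genes none showed such a difference. Groups of 3 arrays are too small for a test of single outlying arrays, so that the high Ucp1 of mutant knockout 1 and mutant control 3 is given as values only.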

How the results depend on the processing

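Below, differences are log2, knockout minus control unless Fbn1 is named, and calls are limma's at the adjusted threshold. Cidea and Pparg kept their direction in both genotypes under every alternative run, and Lpl kept its lower level. They kept their calls when each array was left out in turn, with Cidea at 0.81 to 1.11 in the mutant and 0.56 to 0.88 in the wild-type. With the thermogenic mean as a covariate the fat genes called numbered 0 in the mutant and 1 for the mean of both genotypes. That 1 was Lpl (-0.68, adjusted p = 0.036), while Cidea and Pparg had adjusted p of 0.0997 and 0.0979. With the adipocyte mean the fat genes called numbered 4 in the mutant (Cidea, Pparg, Lpl and Adipoq) and 4 in the wild-type (Cidea, Pparg, Lpl and Fabp4). For the mean of both genotypes they numbered 5 (all of these). Fitted on the knockout groups alone, 1 fat gene, Cidea, was called between Fbn1 mutant and wild-type knockouts (0.53, adjusted p = 0.0116, in a range of 0.0116 to 0.567). The cause of these shifts was not tested, and the covariates themselves varied between groups.

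Counts over all genes moved further. In the mutant 2008 genes were called, against 1261 with only its groups in the fit, 1082 without the 2 arrays of high Ucp1, 93 with the thermogenic and 783 with the adipocyte covariate. In the wild-type 2814 were called, and 1649 with the thermogenic covariate. For the mean of both it was 4316, with 619 and 2461 under the thermogenic and the adipocyte covariate. Between Fbn1 genotypes it was 890 in knockouts, 409 without the 2 arrays and 423 with the thermogenic covariate, and 970 in controls, 480 with only their groups. The difference of knockout effects had 221, and 134 with the thermogenic covariate. Leaving out each array gave 896 to 2146 in the mutant, 1836 to 2992 in the wild-type, 3424 to 4330 for the mean, 382 to 1019 for Fbn1 in knockouts, 349 to 1073 in controls and 107 to 202 for the difference, and 2 to 2, 2 to 3 and 3 to 3 fat genes for the first 3 and 0 to 1 for Fbn1 in knockouts. Fewer arrays were fitted there. The split by direction moved with the scaling. In the mutant 1145 genes rose and 863 fell as deposited, 924 and 925 after quantile normalization, and 660 and 1373 after median centring. In the wild-type these were 1370 and 1444, 1514 and 1474, and 1201 and 1699. The shares of all genes called higher or lower given above are those of the deposited scale.

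Small differences changed sign, mostly of genes not called at either setting. The exceptions were Adipoq in the mutant and Fabp4 in the wild-type, called lower with the adipocyte covariate, and Plin5, called higher in the mutant without one. With the thermogenic covariate, Ucp1, Adipoq, Plin1 and Fabp4 were -1.45, -1.22, -0.59 and -0.79 in the mutant and -0.67, -0.44, -0.16 and -0.5 in the wild-type. For Fbn1 they were -0.39, -0.78, -0.42 and -0.31 in knockouts, where Pparg was -0.03 and Lpl -0.26, and Adipoq was 0.0 and Fabp4 -0.02 in controls. Plin5 was 0.0 in the mutant. With the adipocyte covariate the same 4 genes were -0.52, -0.6, -0.25 and -0.31 in the mutant and -0.34, -0.27, -0.06 and -0.37 in the wild-type, and Adipoq, Plin1 and Lpl were -0.2, -0.1 and -0.11 for Fbn1 in knockouts. With the Adipoq covariate, chosen after seeing the data, Ucp1 was -0.05 in the mutant and -0.11 in the wild-type, Fabp4 -0.17 in the wild-type, and for Fbn1 Fabp4 was -0.01 in controls and Lpl -0.05 in knockouts. Without the 2 arrays of high Ucp1, Fbn1 gave -0.06, -0.25, -0.07 and -0.27 for the 4 genes in controls, and -0.05 for Adipoq and 0.0 for Plin1 in knockouts. Median centring gave -0.01 for Fabp4 in the wild-type and -0.03 for Lpl under Fbn1 in knockouts, where quantile normalization gave 0.0.

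Leaving out single arrays moved Ucp1 between -0.27 and 0.70 in the mutant, 0.00 and 0.09 in the wild-type, and -0.06 and 0.85 for Fbn1 in controls. Adipoq moved between -0.16 and 0.64, -0.06 and 0.45, and for Fbn1 -0.05 and 0.51 in knockouts and -0.25 and 0.55 in controls. Fabp4 moved between -0.01 and 0.66, -0.18 and 0.15, and for Fbn1 -0.27 and 0.41 in controls. For Fbn1, Plin1 moved between -0.04 and 0.29 in knockouts and -0.07 and 0.27 in controls, and Lpl between -0.1 and 0.14 and between -0.12 and 0.13. The difference of knockout effects for Pparg moved between -0.2 and 0.02.

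Replicate numbers did not pair the samples: of 18 correlations of deviations between arrays of the same number, from -0.22 to 0.24, 3 were above 0.1. With the replicate block, 1796 genes were called in the mutant, 2595 in the wild-type, 4017 for the mean, 841 and 867 for Fbn1 in knockouts and controls, and 199 for the difference, with 3 fat genes, Cidea, Pparg and Lpl, in each of the first 3. Lpl, not called in either genotype without the block, had adjusted p of 0.0246 in the mutant and 0.0121 in the wild-type with it. Of the list genes called, 6 of 14 in the mutant and 10 of 17 in the wild-type kept their call without each array. Groups of 3 arrays limit all of these values, and dim genes such as Ucp1 lie near the array's floor.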

Other observations

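The remaining marker lists varied as follows. Among all genes, 13.4% were called either way in the mutant and 18.8% in the wild-type. Of 12 cardiac muscle markers 4 rose and 1 fell in the mutant and 2 rose and 1 fell in the wild-type. The array of highest mean, at 0.47, was mutant knockout 2, the array of lowest Adipoq among the mutant knockouts. Of 8 skeletal muscle markers above the filter 4 rose in the mutant and 1 in the wild-type. Of 11 fibroblast markers 2 rose and 2 fell in the mutant and 5 rose in the wild-type, and of 7 nerve markers none rose and 1 fell in the mutant and 2 rose and 1 fell in the wild-type. Of 6 lymphocyte markers 1 rose in the mutant and none changed past the threshold in the wild-type.

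Mutant control 3, the array of highest Ucp1, also had the highest mean of lymphocyte markers, 0.19, against -0.12 to 0.06 on the other 11 arrays. Its mean of the 3 erythroid markers on the array, 0.37, was the highest as well. Neither erythroid marker above the filter was called in either genotype. Mutant knockout 1, the other array of high Ucp1, had -0.02 for lymphocyte and -0.07 for erythroid markers.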
